A study of Mus musculus with 20 samples.

Results

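Macrophage and myeloid genes were followed across 20 subcutaneous LLC1 tumors as a list of 48 mouse gene symbols covering macrophage identity, complement C1q, Fc receptors, the phagocyte oxidase and the enzymes and receptors used to describe macrophage polarization. The members were set by symbol, and the list was drawn up with earlier results of these data known, so the shares of members called below describe this list and are no independent evidence about it. All 48 were found among the 35226 genes of the count table, and all 48 passed the filter on low counts that left 16665 genes for testing. LLC1 is a Lewis lung carcinoma line from mouse, and the cells were implanted in Matrigel under the skin of the right flank of male C57BL6/J mice aged 8 to 10 weeks, so that immune cells of the host were of the same strain as the tumor. Mice were assigned at random to vehicle, KW6002, cisplatin, or cisplatin together with KW6002 (cotreatment) once tumors had reached a set volume, and 5 tumors per group were sequenced, 1 library per tumor. KW6002 is istradefylline, an antagonist of an adenosine receptor carried by many immune cells, and cisplatin is a platinum drug that damages DNA. KW6002 was dissolved in a carrier of DMSO, cremophor and saline, which served as vehicle, and cisplatin in saline, while the doses and days of treatment for these tumors are not given in the sources used here. The question for these genes was how the myeloid content of the tumor RNA differed between the groups, and whether KW6002 changed it with or without cisplatin.

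Tumor-associated macrophages arise mainly from blood monocytes under the control of the CSF1 receptor and the transcription factor PU.1 (Spi1), and they engulf dying cells, bind antibody-coated targets through Fc receptors, produce superoxide through the phagocyte oxidase and secrete complement C1q. Their states are often described between an interferon-driven side marked by nitric oxide synthase and a side driven by interleukins of wound repair marked by chitinase-like proteins and the mannose receptor, although single cells often carry features of both. Several of these genes are also used by other cells: neutrophils share Fc receptors and the oxidase, and cancer cells can express genes such as Gpnmb and Apoe. The libraries hold RNA of whole tumors, so fewer cells of a type and less RNA of a gene per cell cannot be told apart.

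Values are given as counts per M counts of a library (CPM), scaled by edgeR's trimmed mean of M-values (TMM), with mean ± SD of 5 tumors. A gene is said to have risen or fallen where edgeR's quasi-likelihood test gave a Benjamini-Hochberg adjusted P under 0.05 over all genes tested and the log2 fold change was at least 0.32 in size. Unless a sentence names another fit, calls are those of edgeR fitted to all 20 tumors with 1 mean per group. Totals per tumor ran from 28.4 to 41.0 M counts, and the lowest count of any member in any tumor was 71. The labels carry library codes that fall into an earlier and a later series of numbers, whose meaning is not given. The earlier series held vehicle tumor 1, KW6002 tumors 1 and 2, cisplatin tumors 1 and 2, and cotreated tumors 1, 2 and 3, and all other tumors were in the later series, so that the comparison with vehicle could be repeated within the later series only. Vehicle tumor 1 was also titled differently from the other vehicle tumors. Gene positions are given on GRCm38 as whole genes. Exons of Csf1r, Fcgr2b, Ncf1, Folr2 and Lilrb4a overlap a gene on the opposite strand, and the strand setting of the counting is not stated, so that reads from the shared stretches of these 5 members would have been dropped as ambiguous if strand was ignored. Lilrb4a also overlaps Gm49339 on its own strand, where such reads are dropped under either setting.

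In the vehicle tumors the list stood well above most genes. Per kilobase of exon, 42 of 48 members exceeded the median of all genes tested, which was 4.54 CPM per kb. Lysozyme (Lyz2) came first with 1166.1 ± 300.0 CPM per kb, followed by the C1q chain gene C1qb with 231.3 ± 31.4, cathepsin S (Ctss) with 214.0 ± 24.9, C1qa with 202.6 ± 29.2 and the signalling adaptor Tyrobp with 146.9 ± 12.6 CPM per kb. C1qb, Ctss and C1qa differed from each other by less than their spread. At the other end were Chil3 with 4.11 ± 1.27, Clec7a with 3.57 ± 0.989 and Clec10a with 3.18 ± 1.13 CPM per kb, which also lay within each other's spread. The defining macrophage genes Csf1r, Adgre1 and Spi1 were present in every tumor. Of the epithelial and lung lineage markers, the lung gene Sftpc was at 3 counts or fewer in every tumor and the adhesion gene Epcam averaged at most 0.0409 CPM in a group, whereas the keratin genes Krt8 and Krt18, used by many carcinoma lines, were at 128.5 ± 8.38 and 272.7 ± 10.8 CPM in vehicle tumors. Krt8 rose after cisplatin (log2 fold change 0.53, edgeR adjusted P = 0.000288) and after cotreatment (0.57, adjusted P = 3.12e-05).

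PU.1 binds a GAGGAA core, and the longer form GAGGAAGT was searched on both strands of the RefSeq promoters (GRCm38.p6, 250 bases before to 50 after the start) that were matched for 31 of the 48 members. It was found in 5 of 31 member promoters (16.1%), those of C1qc, Cd53, Ctss, Fcgr4 and Pf4, against 997 of 27025 genes (3.69%) in the whole table. Counting only the 250 bases before the start, it was found in 3 of 31 (9.68%) against 755 of 27025 (2.79%). These 3 promoters are shown, cut to the bases that lie outside the annotated gene, because they are the member promoters in which the match lies upstream of the start. They are written 5′ to 3′ on the strand of the gene, with the match in capitals; in each the match lies on the opposite strand and therefore reads ACTTCCTC.
C1qc (chr4:136893066-136893164, minus strand): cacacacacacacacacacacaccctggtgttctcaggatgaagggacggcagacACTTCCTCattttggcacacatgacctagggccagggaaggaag
Fcgr4 (chr1:171018676-171018919, plus strand): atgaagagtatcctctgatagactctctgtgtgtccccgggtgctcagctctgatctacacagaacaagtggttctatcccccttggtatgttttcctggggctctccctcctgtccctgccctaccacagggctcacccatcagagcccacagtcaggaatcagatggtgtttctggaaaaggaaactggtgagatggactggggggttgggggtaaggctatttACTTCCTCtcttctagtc
Pf4 (chr5:90772185-90772434, plus strand): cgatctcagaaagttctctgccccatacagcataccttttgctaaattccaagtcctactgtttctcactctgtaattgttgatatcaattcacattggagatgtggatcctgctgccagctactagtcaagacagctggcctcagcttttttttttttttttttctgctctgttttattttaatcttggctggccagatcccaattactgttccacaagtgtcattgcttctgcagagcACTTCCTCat
The match begins 195 bases before the RefSeq start of C1qc, 24 before that of Fcgr4 and 10 before that of Pf4. The 3 genes did not share a pattern across the groups. Fcgr4 fell in cotreated against KW6002 tumors, whereas neither C1qc nor Pf4 was called in the fit of all 20 tumors. Both were called higher after cisplatin within the later library codes, and C1qc also by DESeq2.

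KW6002 alone gave no called difference. No member was called by edgeR (0 of 48) and no gene of the whole table was called (0% of 16665), with 2 members at an unadjusted P under 0.05 and 0 members called by DESeq2. The member log2 fold changes ran from -0.11 to 0.31 with a median of 0.09, and 39 of 48 were above 0. Cisplatin alone raised 10 members and lowered 2 against vehicle, that is 20.8% and 4.17% of the list, where 6.01% of all genes tested were called higher and 4.57% lower, and the median member log2 fold change was 0.22. Cotreatment raised 11 members (22.9%, against 13.1% of all genes) and lowered 8 (16.7%, against 10.4% of all genes), with a median of -0.09. These comparisons share the vehicle tumors. The median over all genes tested lay between -0.02 and 0 in each of them. Without cisplatin tumor 1, cisplatin raised 19 members, where 7.43% of all genes were called higher.

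Set against cisplatin alone, cotreatment lowered 5 members (10.4% of the list, against 1.71% of all genes called lower) and raised none (0 of 48, against 2.29% of all genes called higher). The 5 were Aif1, Ms4a7, Fcgr1, Clec4n and Slc11a1. With 1 tumor left out in turn the count ran from 2 to 11 while the share of all genes called lower ran from 0.634% to 2.67%, and only Aif1 and Clec4n kept their calls in all 20 such fits. By edgeR, 17 of 48 members had an unadjusted P under 0.05 in this comparison, the median member log2 fold change was -0.23, and 10 of 48 were above 0. Against KW6002 alone, cotreatment raised 9 members (18.8%, against 12.6% of all genes) and lowered 13 (27.1%, against 10.7% of all genes), with a median of -0.17. The interaction, meaning the effect of KW6002 in the presence of cisplatin minus its effect in the absence of cisplatin, was called for no member (0 of 48, against 0.066% of all genes) by edgeR, with 18 members at an unadjusted P under 0.05, a median of -0.32 and 9 of 48 above 0. DESeq2 called 5 members lower in the interaction, namely Aif1, Clec4n, Fcgr1, Ms4a7 and Ptprc, where it called 0.853% of all genes lower. In the comparisons of 2 groups DESeq2 added calls to those of edgeR and lost that of Csf1r for cotreatment against vehicle. It called C1qb, C1qc, Cd84 and Ms4a7 higher after cisplatin and Fcgr4 lower after cotreatment against vehicle. It also called Adgre1 and Nos2 lower against cisplatin, and Cd163 higher and Ms4a7, Nos2 and Siglec1 lower against KW6002.

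**Figure D1:**
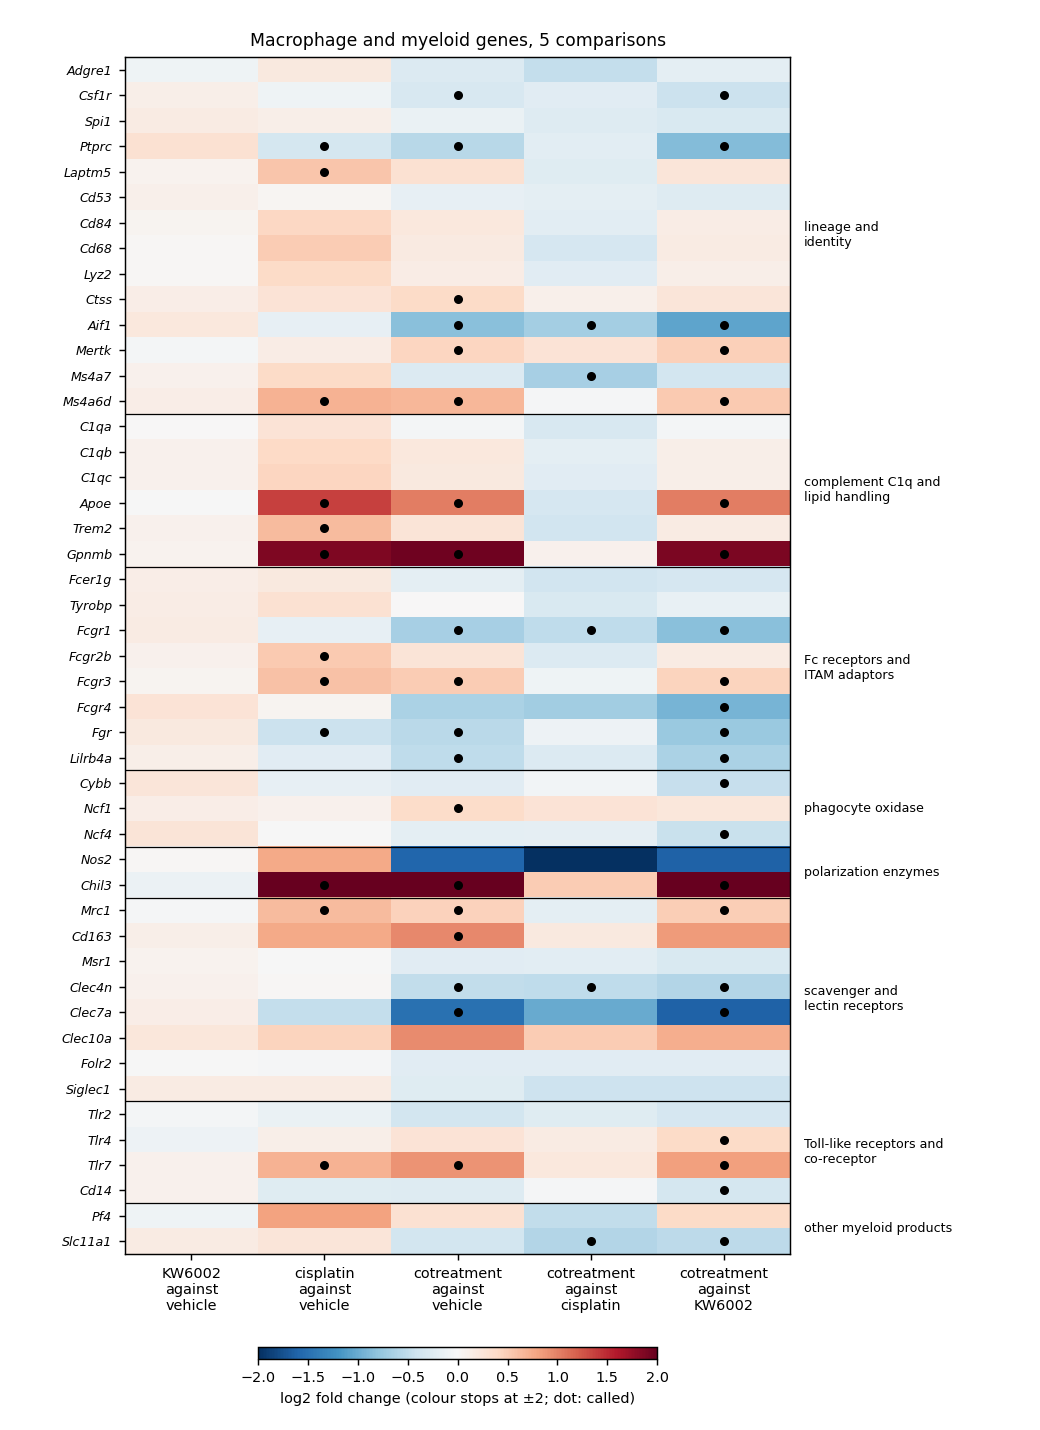
Heat map of the log2 fold changes of the member genes (rows, grouped by role) in the 5 comparisons of 2 groups (columns); a dot marks a gene called by edgeR's quasi-likelihood test, and the color scale ends at a log2 fold change of 2 in either direction. The column of KW6002 against vehicle holds no dot, and the column of cotreatment against cisplatin holds 5, all on the lower side.

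These list-wide values moved with the library codes. The median over the members of log2 CPM minus the vehicle mean was 0.11, -0.06, -0.13, 0.01 and 0.13 in vehicle tumors 1 to 5 and 0.02, 0.18, 0.19, 0.11 and 0.02 in KW6002 tumors. After cisplatin it was -0.10, -0.04, 0.31, 0.54 and 0.34, and after cotreatment -0.15, -0.11, -0.20, 0.15 and 0.18. All 3 cisplatin tumors and both cotreated tumors of the later codes were higher than every tumor of the earlier codes in the same group, whereas vehicle tumors of the later codes lay on both sides of vehicle tumor 1. Within the later codes alone, cisplatin raised 25 members and lowered none (edgeR; median 0.49), where 9% of all genes tested were called higher and 6.93% lower. In the same tumors cotreatment raised 11 and lowered 3 members against vehicle (median 0.17; all genes 7.48% and 5.34%), and raised 8 and lowered 5 against KW6002 (median 0.09; all genes 5.23% and 4.37%).

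For cotreatment against cisplatin, both series of codes hold tumors of both groups. Within the later codes (2 cotreated and 3 cisplatin tumors) no member was called, with 0.00581% of all genes called lower, and the median was -0.28. Within the earlier codes (3 and 2 tumors) 3 members were called lower, Adgre1, Ms4a7 and Slc11a1, with a median of 0.01, where 0.627% of all genes were called lower and 0.994% higher. A fit with separate terms for the code series in tumors with and without cisplatin, added after the data were seen and read at the level of the earlier codes, raised 4 and lowered 7 members after cisplatin (median -0.05; all genes 3.56% and 3.07%). The same fit raised 7 and lowered 18 after cotreatment against vehicle (median -0.21; all genes 11.8% and 10.9%), raised 7 and lowered 20 against KW6002 (median -0.33; all genes 12.9% and 12.2%), and lowered 6 and raised none against cisplatin (median -0.17; all genes 1.44% lower and 1.84% higher).

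Which members were called also moved with the codes, with calls gained as well as lost. Within the later codes, cisplatin also raised C1qa, C1qb, C1qc, Cd163, Cd68, Cd84, Ctss, Fcer1g, Ms4a7, Nos2, Pf4, Siglec1, Slc11a1, Spi1 and Tyrobp against vehicle, and cotreatment also raised Cd68, Cd84 and Laptm5 against vehicle and Laptm5 against KW6002. With the separate code terms, cisplatin also lowered Cd14, Cd53, Clec7a, Fcgr1 and Lilrb4a. In that fit cotreatment against vehicle also raised Tlr4 and lowered Cd14, Cd53, Fcer1g, Fcgr4, Folr2, Ms4a7, Ncf4, Nos2, Slc11a1 and Spi1, and against KW6002 it also lowered Cd53, Fcer1g, Folr2, Ms4a7, Nos2, Siglec1, Spi1 and Tyrobp. Spi1 and Fcer1g thus gained a call higher after cisplatin in the first fit and calls lower after cotreatment in the second.

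Calls were lost in the same fits. After cisplatin, the calls of Ptprc and Fgr were lost within the later codes, and those of Apoe, Trem2, Gpnmb, Chil3, Mrc1 and Ms4a6d were lost with the separate code terms. After cotreatment against vehicle, Csf1r, Ctss, Fcgr1, Lilrb4a, Ncf1, Mrc1, Clec4n and Clec7a lost their calls within the later codes, and Apoe, Ctss, Ncf1, Mrc1 and Cd163 with the separate terms. Against KW6002, Csf1r, Fcgr4, Lilrb4a, Cybb, Ncf4, Mrc1, Clec7a, Tlr4, Cd14 and Slc11a1 lost theirs within the later codes, and Apoe, Cybb and Mrc1 with the separate terms. The part of the library codes in these differences was not tested.

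**Figure D2:**
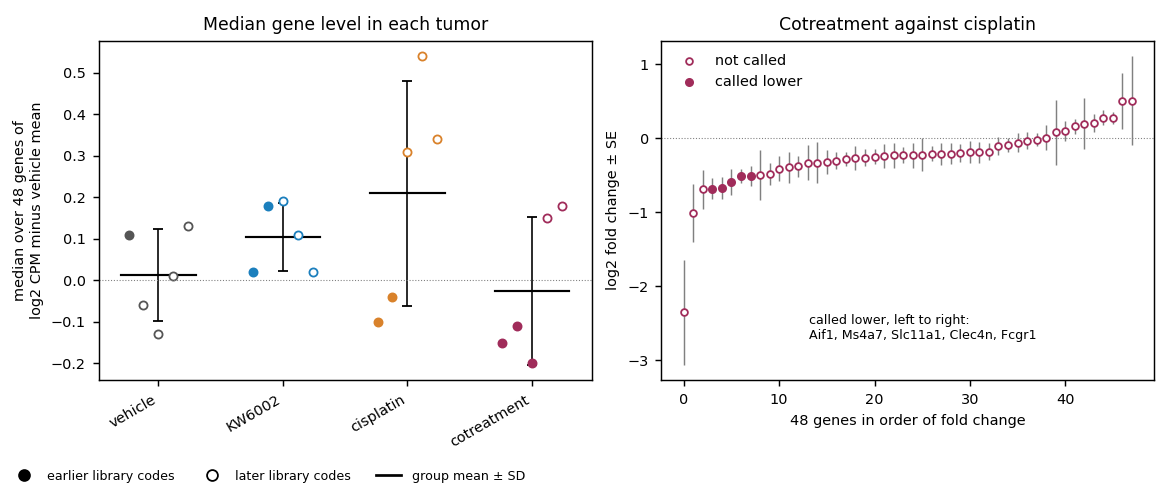
Left, median over the 48 genes of log2 CPM minus the vehicle mean for each tumor by group, with filled points for earlier and open points for later library codes; right, log2 fold change of cotreatment against cisplatin for each gene with its SE. The cisplatin points spread from -0.10 to 0.54, and 38 of the 48 genes on the right were not above 0.

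Lineage and identity genes (14 members) moved in both directions. Cisplatin raised Laptm5 and Ms4a6d and lowered Ptprc (14.3% and 7.14%, against 6.01% and 4.57% of all genes). Cotreatment raised Ctss, Mertk and Ms4a6d and lowered Csf1r, Ptprc and Aif1 against vehicle (21.4% each way, against 13.1% and 10.4%). Ptprc (chr1:138062861-138175708, minus strand) encodes CD45, the phosphatase on nearly all white blood cells. Its CPM was 78.8, 83.3, 67.0, 79.8 and 79.4 in vehicle tumors 1 to 5, and 114.3, 104.9, 76.7, 83.8 and 102.3 in KW6002 tumors. Cisplatin tumors had 60.1, 57.9, 65.9, 60.9 and 60.6 CPM and cotreated tumors 59.7, 42.8, 57.8, 56.9 and 46.9 CPM. All tumors given cisplatin, alone or with KW6002, were below all vehicle and all KW6002 tumors. Ptprc fell by 0.35 on the log2 scale after cisplatin (SE 0.10, edgeR adjusted P = 0.0231) and by 0.55 after cotreatment (SE 0.10, adjusted P = 0.000272). Without vehicle tumor 2, vehicle tumor 4 or cisplatin tumor 4 the call after cisplatin was lost, and the log2 fold change within the later codes was -0.29 (adjusted P = 0.0546).

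Csf1r, the receptor for the macrophage growth factor CSF1, was at 200.9, 139.2, 166.5, 187.9 and 231.5 CPM in vehicle tumors and at 168.7, 243.7, 201.1, 196.1 and 191.1 CPM in KW6002 tumors. It was at 153.9, 156.5, 202.2, 194.3 and 164.0 CPM after cisplatin and at 143.3, 145.2, 146.3, 161.6 and 145.3 CPM after cotreatment. The 5 cotreated tumors lay close together and below all KW6002 tumors, but within the range of the vehicle group. Csf1r was lower after cotreatment by 0.43 against KW6002 (log2, SE 0.11, edgeR adjusted P = 0.00566), and within the later codes this was -0.34 without a call (adjusted P = 0.216). Its fall of 0.32 against vehicle (SE 0.11, adjusted P = 0.0334) lost its call in 15 of the 20 fits that left out 1 tumor. That call was also lost with RLE or upper quartile scaling, no low count filter, the filter of 10 counts, the replicate block, the library code series as a term, only the tumors compared, only the later codes, and DESeq2.

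Adgre1, which encodes the macrophage surface protein F4/80, had 132.1, 95.7, 89.4, 129.2 and 154.2 CPM in vehicle tumors and 92.5, 121.3, 128.3, 114.9 and 110.7 CPM in KW6002 tumors. Cisplatin tumors had 122.5, 127.3, 152.3, 144.9 and 141.1 CPM, and cotreated tumors had 74.9, 87.5, 84.8, 132.6 and 114.5 CPM. Cotreated tumors 1, 2, 3 and 5 were below every cisplatin tumor and cotreated tumor 4 lay within the cisplatin range, the tumors of the earlier codes being the lowest. The log2 fold change of cotreatment against cisplatin was -0.48 (SE 0.15) and missed the threshold (edgeR adjusted P = 0.0705). It was called with the replicate block (-0.50, adjusted P = 0.0495), by DESeq2 (-0.47, adjusted P = 0.0268) and within the earlier codes (-0.59, adjusted P = 0.037), but not within the later codes (-0.24, adjusted P = 0.602). Spi1 was at 23.2, 17.9, 20.3, 16.8 and 20 CPM in vehicle tumors, at 22.8, 23.7, 22.8, 23.5 and 17.4 CPM in KW6002 tumors, at 16.6, 16.7, 24.1, 27.1 and 22.1 CPM after cisplatin and at 17.1, 16.9, 19.3, 18.8 and 16.8 CPM after cotreatment. The 4 groups overlapped, and Spi1 was called in no comparison in the fit of all 20 tumors, while the fits by library code given above did call it.

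Aif1 (chr17:35170991-35176068, minus strand) encodes IBA1, an actin-binding protein of macrophages and microglia. It was at 16.5, 14.4, 16.7, 12.0 and 17.5 CPM in vehicle tumors and at 21.1, 18.0, 15.1, 19.4 and 15.9 CPM in KW6002 tumors. After cisplatin it was at 9.94, 12.2, 13.6, 18.3 and 14.8 CPM, and after cotreatment at 9.79, 7.69, 8.73, 9.30 and 7.49 CPM. Every cotreated tumor lay below every tumor of the other 3 groups, with cotreated tumor 1 just under cisplatin tumor 1. Aif1 fell by 0.84 against vehicle (log2, SE 0.14, edgeR adjusted P = 0.000109), by 1.06 against KW6002 (adjusted P = 1.02e-05) and by 0.68 against cisplatin (SE 0.14, adjusted P = 0.00743). The fall against cisplatin held in all 20 fits that left out 1 tumor. Within the later codes it was -0.89 (adjusted P = 0.148) and within the earlier codes -0.34 (adjusted P = 0.28). The interaction of Aif1 was -0.89 (SE 0.20, adjusted P = 0.0668).

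Ms4a7 and Ms4a6d, related membrane proteins of the MS4A family that mark tissue macrophages and monocyte-derived cells, differed in their pattern. Ms4a7 was at 63.2 ± 12.9 CPM in vehicle, 82.9 ± 15.2 CPM after cisplatin and 52.1 ± 10.3 CPM after cotreatment. It fell by 0.67 between cotreatment and cisplatin (log2, SE 0.15, edgeR adjusted P = 0.0133), with -0.69 within the earlier codes (adjusted P = 0.0399) and -0.52 within the later codes (adjusted P = 0.341), and the call was lost without cotreated tumor 3. Ms4a6d was at 99.6 ± 13 CPM in vehicle tumors, 160.2 ± 33.6 CPM after cisplatin and 157.1 ± 22.3 CPM after cotreatment. It rose 1.61-fold after cisplatin (adjusted P = 0.000941) and 1.58-fold after cotreatment (adjusted P = 0.000379), and both calls held within the later codes. With the separate code terms the rise after cisplatin was 0.51 and no longer called (adjusted P = 0.059).

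Mertk, a receptor for engulfment of apoptotic cells, ranged from 54.1 to 68.6 CPM in vehicle, from 55.9 to 67.8 CPM in KW6002 and from 70.8 to 97.3 CPM in cotreated tumors, which therefore lay above both. It rose 1.35-fold against vehicle after cotreatment (edgeR adjusted P = 0.000346) and 1.38-fold against KW6002 (adjusted P = 0.000165), and both calls held under all alternatives tried. Laptm5, a lysosomal membrane protein of blood cells, went from 108.7 ± 8.06 CPM in vehicle tumors up to 159.8 ± 30.3 CPM after cisplatin (1.47-fold, adjusted P = 0.000652). Cathepsin S (Ctss), a lysosomal protease, went from 290.6 ± 33.9 CPM in vehicle to 379.0 ± 55.9 CPM in cotreated tumors (1.30-fold, adjusted P = 0.029), a call lost without vehicle tumor 3, cotreated tumor 2 or cotreated tumor 5. The lysosomal protein Cd68, lysozyme (Lyz2), the tetraspanin Cd53, the SLAM family receptor Cd84, Adgre1 and Spi1 were called in none of the 6 comparisons in the fit of all 20 tumors. DESeq2 and the replicate block each called Cd84 after cisplatin and Adgre1 between cotreatment and cisplatin. Among the cisplatin tumors Cd68 ran from 106.6 to 279.6 CPM. Within the later codes its log2 fold change after cisplatin was 0.90 (adjusted P = 0.00496).

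Complement C1q and lipid handling genes (6 members) pointed upward after cisplatin, where all 6 had a log2 fold change above 0 (against 8346 of 16665 genes) and 3 rose, Apoe, Trem2 and Gpnmb (50%, against 6.01% of all genes). All 3 of these calls were lost with the separate code terms, where edgeR's log2 fold changes were 0.77 for Apoe (adjusted P = 0.213), 0.13 for Trem2 (adjusted P = 0.771) and 1.11 for Gpnmb (adjusted P = 0.263), while within the later codes all 3 held. After cotreatment 2 rose against vehicle, Apoe and Gpnmb (33.3%, against 13.1% of all genes), and none fell. Apolipoprotein E (Apoe, chr7:19696109-19699188, minus strand), which carries cholesterol out of cells, was at 241.6, 221.6, 259.0, 143.2 and 286.8 CPM in vehicle tumors and 263.5, 202.8, 241.1, 217.0 and 219.7 CPM in KW6002 tumors. It reached 311.3, 366.3, 624.5, 1082.0 and 565.6 CPM after cisplatin and 373.0, 552.8, 344.8, 428.1 and 640.3 CPM after cotreatment. No tumor given cisplatin overlapped with the vehicle or KW6002 tumors. Apoe rose 2.56-fold after cisplatin (log2 fold change 1.36, SE 0.28, edgeR adjusted P = 0.00377) and 2.03-fold after cotreatment (1.02, SE 0.28, adjusted P = 0.00889). With the separate code terms the latter was 0.68 and not called (adjusted P = 0.139).

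Gpnmb (chr6:49036546-49070929, plus strand) is a transmembrane glycoprotein of lysosome-rich macrophages and also of pigment and some cancer cells. It had 29.5, 27.8, 35.9, 24.5 and 26.0 CPM in vehicle tumors and 27.6, 21.2, 33.5, 32.6 and 35.5 CPM in KW6002 tumors. Cisplatin tumors had 29.2, 53.1, 83.1, 206.4 and 151.5 CPM, and cotreated tumors had 67.2, 146.5, 55.5, 71.1 and 213.1 CPM. Cisplatin tumor 1 stayed in the vehicle range while the other 4 lay above it, as did all cotreated tumors. Gpnmb rose 3.64-fold after cisplatin (log2 fold change 1.87, SE 0.46, edgeR adjusted P = 0.0119) and 3.85-fold after cotreatment (1.95, SE 0.46, adjusted P = 0.00374).

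Trem2, a lipid-sensing receptor that signals through Tyrobp, was at 30.4 ± 4.39 CPM in vehicle tumors and ranged from 31.3 to 72.7 CPM after cisplatin. It rose 1.55-fold (edgeR adjusted P = 0.0487), but the call was lost in 14 of the 20 fits that left out 1 tumor. The C1q chains form the recognition part of the classical complement pathway. C1qa was at 210.7 ± 30.3 CPM in vehicle, 255.6 ± 72.4 CPM after cisplatin and 205.2 ± 27.3 CPM after cotreatment, and none of the 3 chains was called in the fit of all 20 tumors, while DESeq2 called C1qb and C1qc higher after cisplatin. After cisplatin the log2 fold changes were 0.28 for C1qa (adjusted P = 0.238), 0.40 for C1qb (adjusted P = 0.0504) and 0.43 for C1qc (adjusted P = 0.0861). Among the later codes they were 0.55, 0.66 and 0.74, with adjusted P of 0.0241, 0.00343 and 0.0113.

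**Figure D3:**
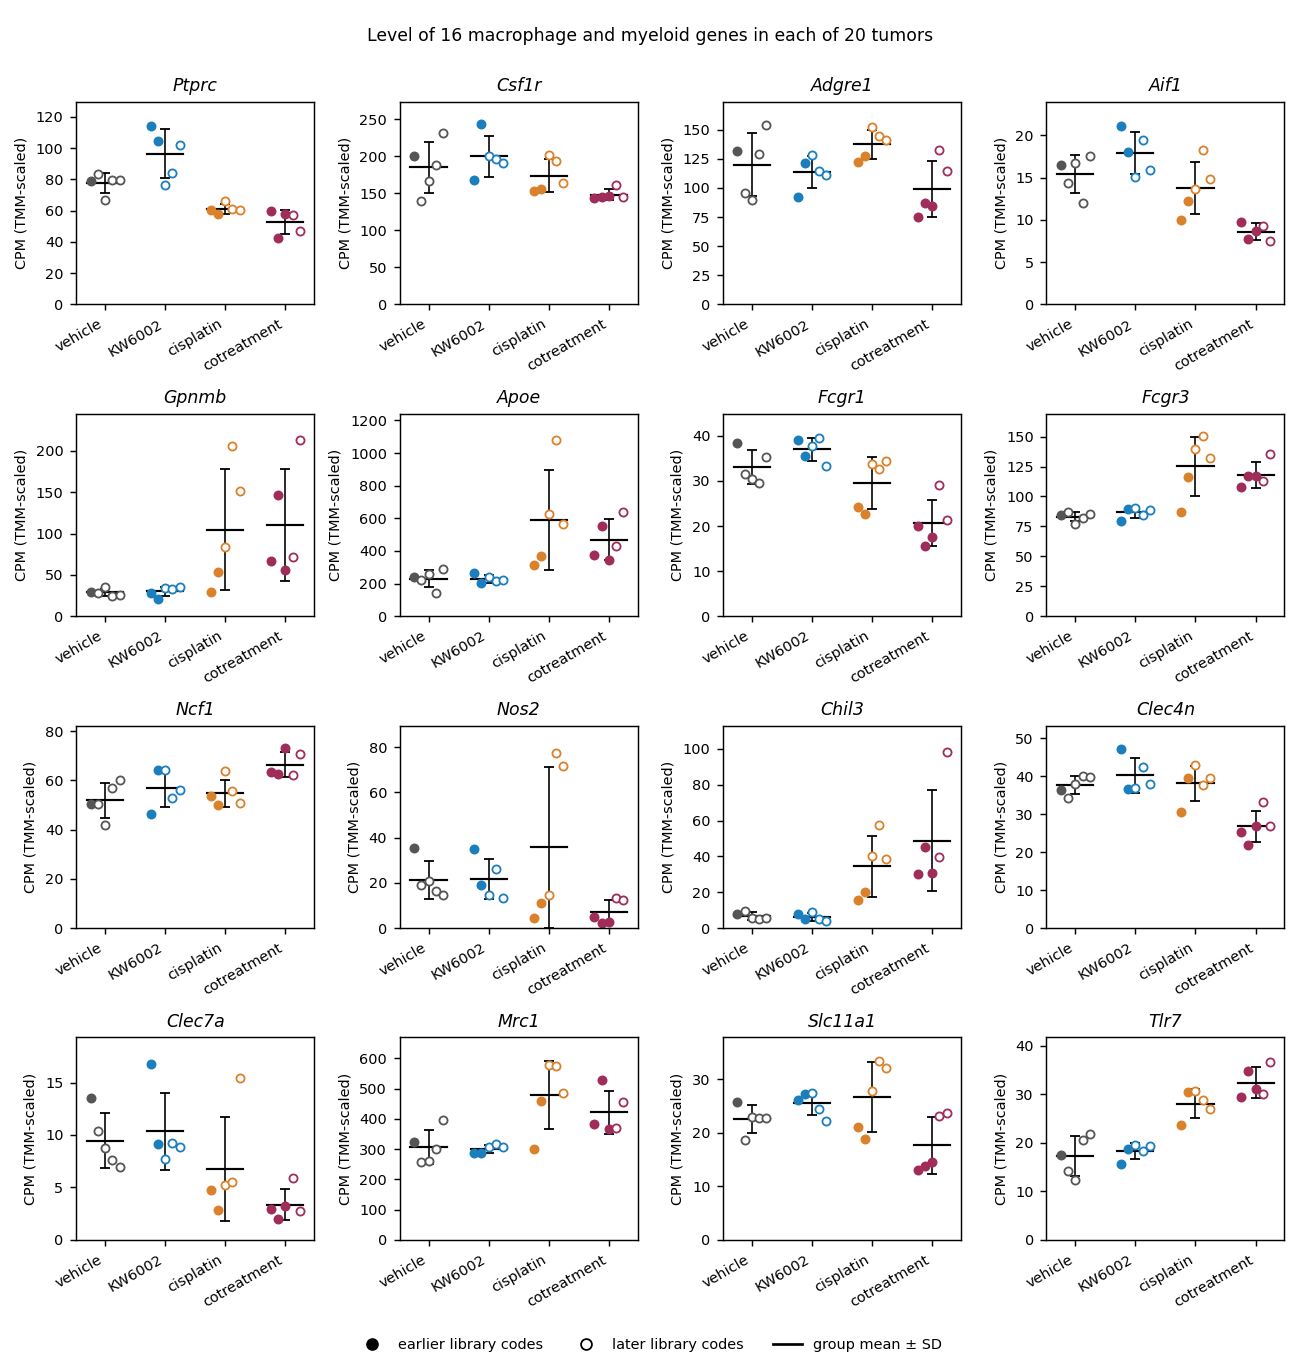
CPM of 16 member genes in each tumor by group, each panel on its own linear axis, with filled points for earlier and open points for later library codes and a line with whiskers for the mean ± SD of 5 tumors. Ptprc and Tlr7 separate all cisplatin-treated tumors from all others in opposite directions, while Aif1 is lowest in the cotreated tumors (7.49 to 9.79 CPM).

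Fc receptors and the adaptors that signal through ITAM motifs (8 members) diverged from each other. Cisplatin raised Fcgr2b and Fcgr3 and lowered Fgr (25% and 12.5%, against 6.01% and 4.57% of all genes). Cotreatment raised Fcgr3 and lowered Fcgr1, Fgr and Lilrb4a against vehicle (12.5% and 37.5%, against 13.1% and 10.4%). Fcgr1 (chr3:96282909-96293969, minus strand) encodes the high-affinity activating receptor for IgG. It was at 38.4, 31.5, 30.5, 29.6 and 35.4 CPM in vehicle tumors, and at 39.0, 35.5, 37.8, 39.6 and 33.4 CPM in KW6002 tumors. Cisplatin tumors had 24.2, 22.6, 33.8, 32.7 and 34.5 CPM and cotreated tumors 20.1, 15.5, 17.6, 29.0 and 21.3 CPM. Every cotreated tumor was below every vehicle and every KW6002 tumor, and cotreated tumor 4 alone reached into the cisplatin range. Fcgr1 fell by 0.67 after cotreatment against vehicle (log2, SE 0.14, edgeR adjusted P = 0.00103), by 0.84 against KW6002 (adjusted P = 0.000152) and by 0.51 against cisplatin (SE 0.14, adjusted P = 0.0365). The call against cisplatin was lost in 7 of the 20 fits that left out 1 tumor, and within either series of codes (-0.42 with adjusted P = 0.253 in the later, -0.39 with adjusted P = 0.111 in the earlier).

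Fgr, a Src-family kinase of myeloid cells, was at 27.5, 28.2, 21.3, 28.5 and 24.7 CPM in vehicle tumors and at 28.7, 38.2, 28.4, 28.8 and 26.1 CPM in KW6002 tumors. It was at 19.7, 19.2, 23.7, 15.2 and 18.7 CPM after cisplatin and 20.1, 15.5, 19.5, 18.0 and 16.8 CPM after cotreatment. All cotreated tumors and 4 of the 5 cisplatin tumors lay below all vehicle tumors. Fgr fell by 0.43 after cisplatin (log2, SE 0.12, edgeR adjusted P = 0.0135) and by 0.54 after cotreatment (SE 0.12, adjusted P = 0.00111). Restricted to the later codes, these were -0.40 (adjusted P = 0.0521) and -0.54 (adjusted P = 0.0341).

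Fcgr3, a low-affinity activating receptor, ranged from 76.9 to 87.2 CPM in vehicle tumors, from 87.4 to 150.1 CPM in cisplatin tumors and from 107.8 to 135.5 CPM in cotreated tumors. It rose 1.5-fold after cisplatin (edgeR adjusted P = 0.000481) and 1.42-fold after cotreatment (adjusted P = 0.000547), with no overlap with vehicle in either case. Fcgr2b, the inhibitory receptor of the family, rose 1.45-fold after cisplatin, from 145.5 ± 17.4 to 210.5 ± 30.7 CPM (adjusted P = 0.00075). After cotreatment it was at 173.1 ± 13.7 CPM, and its log2 fold change of 0.25 stayed under the fold limit (adjusted P = 0.0446). Reads from stretches shared by Fcgr2b and Fcgr3 would not align uniquely, so both values rest on the stretches in which they differ. Fcgr4, another activating receptor, was at 13.1 ± 3.44 CPM in KW6002 and 6.87 ± 1.78 CPM in cotreated tumors and fell by 0.93 between them (log2, SE 0.26, adjusted P = 0.00899). Lilrb4a, an inhibitory receptor with near-identical copies, fell by 0.51 after cotreatment against vehicle (SE 0.16, adjusted P = 0.0156) and by 0.63 against KW6002 (SE 0.16, adjusted P = 0.00376). None of these 3 falls was called within the later codes, with -0.55 for Fcgr4 (adjusted P = 0.213) and -0.29 and -0.36 for Lilrb4a (adjusted P = 0.246 and 0.184). The adaptors Fcer1g and Tyrobp, which carry the ITAM motifs for these receptors, were called in no comparison in the fit of all 20 tumors or by DESeq2. Apart from the fits by library code, Fcer1g was called lower after cotreatment against KW6002 with only the tumors compared and without cisplatin tumor 4. Against cisplatin, Fcer1g was called lower without cisplatin tumor 1 or 2. Without cisplatin tumor 1, Tyrobp was called higher after cisplatin and lower between cotreatment and cisplatin.

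Of the 3 phagocyte oxidase genes, none was called after cisplatin, where 6.01% of all genes were called higher and 4.57% lower. After cotreatment Ncf1 rose against vehicle (33.3%, against 13.1% of all genes). Ncf4 and Cybb fell against KW6002 (66.7%, against 10.7% of all genes). Ncf1 encodes the p47 subunit that assembles with the membrane complex on activation. It was at 50.3, 50.4, 41.9, 56.8 and 60.4 CPM in vehicle tumors and at 46.3, 64.4, 64.4, 52.9 and 56.0 CPM in KW6002 tumors. Cisplatin tumors had 53.6, 49.9, 63.9, 55.7 and 50.7 CPM and cotreated tumors had 63.6, 62.7, 73.3, 62.3 and 70.6 CPM. The cotreated tumors lay above all vehicle tumors and overlapped with the KW6002 and cisplatin tumors. Ncf1 rose 1.28-fold against vehicle (log2 fold change 0.36, SE 0.10, edgeR adjusted P = 0.00766), a call lost without vehicle tumor 3 and within the later codes (0.36, adjusted P = 0.087).

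Ncf4, the p40 subunit, was at 18.6, 17.3, 17.1, 16.6 and 17.3 CPM in vehicle, 19.9, 27.0, 21.8, 19 and 16.3 CPM after KW6002, 16.2, 14.6, 20.8, 18.3 and 16.5 CPM after cisplatin and 15.6, 15.4, 16.4, 15.0 and 13.7 CPM after cotreatment. KW6002 tumor 2 was the highest, and the cotreated tumors met the KW6002 range only at its lowest tumor. Ncf4 fell by 0.45 against KW6002 (log2, SE 0.11, edgeR adjusted P = 0.00252). Cybb, the catalytic subunit in the membrane, went from 52.0 ± 6.93 CPM in KW6002 to 37.7 ± 7.20 CPM in cotreated tumors and fell by 0.46 (SE 0.13, adjusted P = 0.0102). Neither fall was called within the later codes, where Ncf4 was at -0.40 (adjusted P = 0.0703) and Cybb at -0.45 (adjusted P = 0.169).

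Among 7 tested genes from a list of other oxidase subunits and partners, 1 rose and 2 fell after cotreatment against vehicle (14.3% and 28.6%, against 13.1% and 10.4% of all genes) and likewise against cisplatin (against 2.29% and 1.71% of all genes). None of the 7 was called after cisplatin alone by edgeR, with 1 at an unadjusted P under 0.05. Rac2, the small GTPase of the oxidase in blood cells, went from 28.2 ± 3.02 CPM in vehicle and 28.0 ± 5.05 CPM in cisplatin tumors to 18.7 ± 2.92 CPM after cotreatment (log2 fold change against cisplatin -0.58, edgeR adjusted P = 0.0133). Nox4, a catalytic homolog found mainly outside blood cells, went from 6.53 ± 1.13 CPM in vehicle and 7.59 ± 1.63 CPM in cisplatin to 14.3 ± 3.62 CPM in cotreated tumors (0.91 against cisplatin, adjusted P = 0.00447).

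Of the polarization enzymes, Chil3 rose in both groups given cisplatin, and Nos2 was called by edgeR in none of the comparisons although several alternatives called it lower after cotreatment. Chil3 (Ym1, chr3:106147554-106167564, minus strand), a chitinase-like protein of alternatively activated macrophages and also of neutrophils, had the largest log2 fold change of the list. It was at 8.01, 9.70, 5.65, 4.82 and 5.38 CPM in vehicle tumors and 7.83, 5.16, 9.08, 5.16 and 3.65 CPM in KW6002 tumors. Cisplatin tumors reached 15.9, 20, 40.0, 57.7 and 38.8 CPM and cotreated tumors 29.9, 45.3, 30.9, 39.8 and 98.1 CPM. All 10 tumors given cisplatin were above all others, with the cisplatin tumors of the earlier codes lowest and cotreated tumor 5 far above the rest of its group. Chil3 rose 5.15-fold after cisplatin (log2 fold change 2.36, SE 0.41, edgeR adjusted P = 0.000985) and 7.29-fold after cotreatment (2.87, SE 0.41, adjusted P = 5.76e-05). With the separate code terms the rise after cisplatin was 1.39 and no longer called (adjusted P = 0.0679), and that after cotreatment was 2.17 (adjusted P = 0.0015). Reads from stretches shared with its close copy Chil4 would not have been counted.

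Inducible nitric oxide synthase (Nos2, chr11:78920787-78960254, plus strand), on the interferon-driven side, was at 35.4, 19.1, 20.9, 16.2 and 14.8 CPM in vehicle tumors and 34.8, 19.2, 14.7, 26.1 and 13.2 CPM in KW6002 tumors. It was at 4.46, 11, 14.5, 77.5 and 71.4 CPM after cisplatin and at 4.89, 2.26, 2.69, 13.2 and 12.2 CPM after cotreatment. Cisplatin tumors 4 and 5 were the highest while cisplatin tumors 1, 2 and 3 lay below every vehicle tumor, and in both cisplatin-treated groups the tumors of the earlier codes were below those of the later codes. Every cotreated tumor was below every vehicle tumor, but the log2 fold change of -1.59 (SE 0.70) was not called (edgeR adjusted P = 0.0864). Nor was that of -2.35 against cisplatin (SE 0.71, adjusted P = 0.0569), which was -2.10 within the later codes (adjusted P = 0.29) and -1.23 within the earlier codes (adjusted P = 0.379). Against cisplatin it was called by DESeq2 (-2.33, adjusted P = 0.0079), with the filter of 10 counts (-2.34, adjusted P = 0.0487) and with the separate code terms (-1.71, adjusted P = 0.0383). The same comparison was also called without cisplatin tumor 1, cisplatin tumor 2 or cotreated tumor 4. Against vehicle it was called with the replicate block (-1.98, adjusted P = 0.0421) and the separate code terms (-3.43, adjusted P = 0.000471). Against KW6002 the edgeR value was -1.62 (adjusted P = 0.0829), and calls came from the replicate block (-1.92, adjusted P = 0.0466), DESeq2 (-1.61, adjusted P = 0.0467) and the separate code terms (-3.33, adjusted P = 0.000295). After cisplatin alone the log2 fold change was 0.75 (SE 0.67, adjusted P = 0.472), with 1.63 within the later codes (adjusted P = 0.049) and -1.72 with the separate code terms (adjusted P = 0.101).

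Of 19 other genes on the interferon gamma and IL-4 sides, 1 rose and 2 fell after cisplatin against vehicle (5.26% and 10.5%, against 6.01% and 4.57% of all genes), and 1 rose and 9 fell after cotreatment (5.26% and 47.4%, against 13.1% and 10.4%). Against cisplatin, cotreatment lowered 3 (15.8%, against 1.71% of all genes) and raised none, with an unadjusted P under 0.05 in 7 of 19 by edgeR. The costimulatory ligand gene Cd80 rose from 7.34 ± 1.39 CPM in vehicle to 22.5 ± 3.17 CPM after cisplatin and 20 ± 2.93 CPM after cotreatment (log2 fold changes 1.62 and 1.45, edgeR adjusted P = 4.85e-07 and 2.99e-07). Irf1, an interferon-induced transcription factor, went from 95.7 ± 3.88 CPM in vehicle and 79.6 ± 7.63 CPM after cisplatin to 62.3 ± 5.59 CPM after cotreatment. It fell by 0.62 against vehicle (log2, adjusted P = 1.32e-06) and by 0.35 against cisplatin (adjusted P = 0.00519).

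Within-tumor ratios of gene pairs carry no effect of library scaling, and such pairs were compared across the 5 comparisons of 2 groups, with 25 tests in all. The log2 ratio of Mrc1 to Adgre1 was 1.36 ± 0.13 in vehicle, 1.77 ± 0.27 in cisplatin and 2.11 ± 0.42 in the cotreated group (SD, n = 5). The ratios are not scaled to gene length, so they compare groups and not the levels of the genes. Two-sided exact permutation of the tumors gave a difference of 0.74 after cotreatment against vehicle (P = 0.0159, adjusted over the 25 tests 0.0661). Trem2 to Csf1r went from -2.59 ± 0.17 in vehicle to -1.94 ± 0.40 after cisplatin without overlap, a difference of 0.65 at the smallest P that 5 against 5 tumors allow (exact permutation P = 0.00794, adjusted 0.0661). Fcgr2b to Fcgr3 was 0.80 ± 0.13 in vehicle and 0.55 ± 0.17 in cotreated tumors. C1qa to Adgre1 differed by 0.25 between cotreatment and vehicle (exact permutation P = 0.183). No ratio passed an adjusted P of 0.05.

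**Figure D4:**
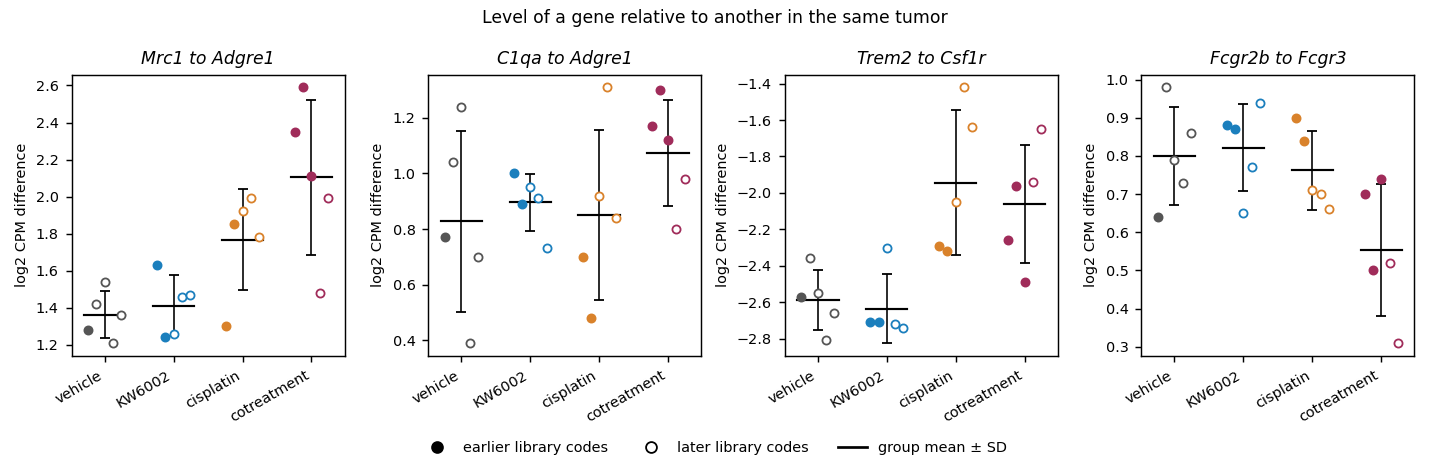
Log2 ratio of 4 gene pairs in each tumor (difference of log2 CPM) by group, with filled points for earlier and open points for later library codes and a line for the group mean ± SD of 5 tumors. The ratio of Mrc1 to Adgre1 has its highest mean in the cotreated tumors (2.11), and the cisplatin tumors lie above the vehicle tumors in the ratio of Trem2 to Csf1r.

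Scavenger and lectin receptors (8 members) split by gene. Mrc1, the mannose receptor, rose after cisplatin from 306.9 ± 56.8 to 478.7 ± 112.4 CPM (1.56-fold, edgeR adjusted P = 0.00695) and to 421.0 ± 70.0 CPM after cotreatment (1.37-fold, adjusted P = 0.0232). The latter call was lost without vehicle tumor 2, vehicle tumor 3 or cotreated tumor 2. Cd163, the scavenger receptor for hemoglobin bound to haptoglobin, rose after cotreatment from 24.9 ± 3.69 to 48.4 ± 18.0 CPM (1.95-fold, adjusted P = 0.0397), a call lost in 7 of the 20 fits that left out 1 tumor. With the separate code terms none of these 3 rises was called. Both lectins of the Dectin family went the other way after cotreatment.

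Clec4n (Dectin-2, chr6:123229843-123247021, plus strand), a receptor for fungal mannans that signals through Fcer1g, was at 36.4, 34.2, 38.0, 40.0 and 39.9 CPM in vehicle tumors and 47.3, 36.6, 36.9, 42.4 and 38.1 CPM in KW6002 tumors. Cisplatin tumors had 30.7, 39.7, 43.0, 37.8 and 39.6 CPM and cotreated tumors 25.4, 21.9, 26.8, 33.2 and 26.8 CPM. The cotreated tumors were below all vehicle and KW6002 tumors and, apart from tumor 4, below all cisplatin tumors. Clec4n fell by 0.49 against vehicle (log2, SE 0.10, edgeR adjusted P = 0.0007), by 0.59 against KW6002 (SE 0.10, adjusted P = 0.000146) and by 0.51 against cisplatin (SE 0.10, adjusted P = 0.00605). The fall against cisplatin held in all 20 fits that left out 1 tumor, but not within the later codes (-0.42, adjusted P = 0.209) or the earlier codes (-0.50, adjusted P = 0.131). Clec4n had an interaction of -0.60 (adjusted P = 0.0812).

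Clec7a (Dectin-1), the receptor for fungal beta-glucans, was at 13.5, 10.4, 8.72, 7.65 and 6.91 CPM in vehicle tumors and 16.8, 9.16, 7.75, 9.19 and 8.86 CPM in KW6002 tumors. It was at 4.77, 2.84, 5.23, 5.52 and 15.4 CPM after cisplatin and 2.91, 1.96, 3.24, 5.89 and 2.78 CPM after cotreatment. Apart from cisplatin tumor 5, every tumor given cisplatin lay below every vehicle tumor. Clec7a fell by 1.49 after cotreatment against vehicle (log2, SE 0.39, edgeR adjusted P = 0.00622) and by 1.62 against KW6002 (SE 0.39, adjusted P = 0.00344). Restricted to the later codes these were -0.93 (adjusted P = 0.196) and -0.97 (adjusted P = 0.222). The scavenger receptor Msr1, the galactose lectin Clec10a, the folate receptor Folr2 and the sialic acid lectin Siglec1 were called in no comparison in the fit of all 20 tumors. DESeq2 called Siglec1 lower after cotreatment against KW6002, as did the fit of only the tumors compared, which also called Clec10a higher against vehicle, and the fits by library code called Siglec1 and Folr2.

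Of the Toll-like receptors and their co-receptor (4 members), Tlr7 alone was called against vehicle in the fit of all 20 tumors. That is 25% of the role, against 6.01% of all genes called higher after cisplatin and 13.1% after cotreatment. The separate code terms also called Cd14 lower in both groups given cisplatin and Tlr4 higher after cotreatment. Tlr7 (chrX:167304929-167330558, minus strand) senses single-stranded RNA in endosomes. It had 17.5, 14.2, 12.3, 20.6 and 21.8 CPM in vehicle and 15.6, 18.8, 19.5, 18.3 and 19.3 CPM in KW6002 tumors. After cisplatin it had 23.6, 30.4, 30.7, 28.8 and 26.9 CPM and after cotreatment 29.4, 34.8, 31.1, 30.0 and 36.7 CPM. All 10 tumors given cisplatin were above all 10 others, and the codes did not divide them. Tlr7 rose 1.62-fold after cisplatin (log2 fold change 0.70, SE 0.12, edgeR adjusted P = 0.000749) and 1.87-fold after cotreatment (0.90, SE 0.12, adjusted P = 1.47e-05), and both calls held under all alternatives tried.

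Cd14, the co-receptor for lipopolysaccharide, had 42.9, 39.8, 34.1, 39.5 and 39.5 CPM in vehicle, 42.6, 44.4, 44.1, 40.0 and 37.2 CPM after KW6002, 29.7, 30.3, 35.6, 37.5 and 32.2 CPM after cisplatin and 34.2, 28.0, 30.3, 40.8 and 29.9 CPM after cotreatment. Most tumors given cisplatin were lower, and cisplatin tumors 3 and 4 and cotreated tumors 1 and 4 overlapped with the vehicle range. Cd14 fell by 0.35 after cotreatment against KW6002 (log2, SE 0.09, edgeR adjusted P = 0.00526), a call lost without cotreated tumor 2, 3 or 5. Tlr4, the lipopolysaccharide receptor, ranged from 44.5 to 60.4 CPM in KW6002 and from 62.4 to 75.0 CPM in cotreated tumors and rose 1.30-fold (adjusted P = 0.00812). Tlr2, for bacterial lipoproteins, was called in no comparison in the fit of all 20 tumors or by DESeq2. Among 13 partner genes of these receptors, 2 rose and 1 fell after cisplatin (15.4% and 7.69%, against 6.01% and 4.57% of all genes) and 3 rose and 3 fell after cotreatment against vehicle (23.1% each way, against 13.1% and 10.4%). The RNA sensors Tlr8 (from 11.7 ± 2.54 to 16.4 ± 2.58 and 19.8 ± 0.892 CPM) and Tlr13 (from 42.2 ± 5.04 to 61.0 ± 4.79 and 56.8 ± 6.24 CPM) rose in both.

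Slc11a1, a metal transporter of the phagosome, was at 25.7, 18.6, 23.0, 22.7 and 22.8 CPM in vehicle and 26.1, 27.3, 27.4, 24.4 and 22.2 CPM in KW6002 tumors. Cisplatin tumors had 21, 18.8, 27.8, 33.3 and 32.1 CPM and cotreated tumors 13.1, 13.7, 14.5, 23.2 and 23.7 CPM. In both groups the tumors of the earlier codes were the lower ones. Slc11a1 fell by 0.59 between cotreatment and cisplatin (log2, SE 0.18, edgeR adjusted P = 0.0487). The fall was -0.52 within the earlier codes (adjusted P = 0.0313) and -0.40 within the later codes (adjusted P = 0.253), and 16 of the 20 fits that left out 1 tumor lost the call. Platelet factor 4 (Pf4), a chemokine of platelets and of some macrophages, was at 54.0, 29.6, 48.2, 35 and 54.2 CPM in vehicle and 37.1, 30.9, 62.5, 43.2 and 34.1 CPM in KW6002 tumors. It was at 32.3, 45.3, 81.8, 135.5 and 90.5 CPM in cisplatin and 37.4, 55.5, 33.7, 71.8 and 73.6 CPM in cotreated tumors, where the tumors of the later codes were highest, and it was called in no comparison in the fit of all 20 tumors or by DESeq2, but rose by 1.31 on the log2 scale after cisplatin within the later codes.

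The pathway genes around these receptors were counted in the same fit, and each count is read against the share of all genes called in that direction: 6.01% higher and 4.57% lower after cisplatin, 13.1% and 10.4% after cotreatment against vehicle, and 2.29% and 1.71% against cisplatin. Of 14 other complement genes, 1 rose after cisplatin (7.14%), near the background, and 1 rose and 1 fell after cotreatment against vehicle (7.14% each way), below it. The anaphylatoxin receptor C5ar1 went from 55.2 ± 6.97 CPM in cisplatin to 38.1 ± 5.93 CPM in cotreated tumors (log2 fold change -0.54, edgeR adjusted P = 0.0058). Of 16 genes of Fc receptor and ITAM signalling, none was called after cisplatin by edgeR, with 4 at an unadjusted P under 0.05, while 6 fell (37.5%) and 1 rose (6.25%) after cotreatment against vehicle and 2 fell against cisplatin (12.5%). Lcp2, the adaptor SLP-76 of ITAM receptors, fell from 26.5 ± 1.33 CPM in vehicle and 29.4 ± 1.45 CPM in KW6002 tumors to 21.1 ± 1.97 CPM after cotreatment (log2 fold changes -0.33 and -0.48, adjusted P = 0.00112 and 3.33e-05).

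Of 10 tested macrophage growth factors and receptors, 1 rose and 4 fell after cotreatment against vehicle (10% and 40%). Tgfbr2 went from 206.3 ± 16.5 CPM in KW6002 to 284.7 ± 41.9 CPM in cotreated tumors, and Csf3, the neutrophil growth factor, went from 2.78 ± 2.06 CPM in vehicle to 0.195 ± 0.0677 CPM after cotreatment (edgeR adjusted P = 0.00145). Of 12 macrophage transcription factors, 3 rose after cisplatin (25%) and 5 after cotreatment against vehicle (41.7%), with none lower in either. Ikzf1, a factor of blood cell development, fell from 15.6 ± 2.45 CPM in KW6002 to 10.9 ± 1.19 CPM in cotreated tumors (log2 fold change -0.51, adjusted P = 0.000456).

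Markers of other cell types moved with the groups as well, where 4.57% of all genes fell after cisplatin, 10.4% after cotreatment against vehicle and 10.7% against KW6002. Of 7 markers of monocytes, the blood precursors of these macrophages, 1 fell after cisplatin, the matrix gene Fn1, which fibroblasts also express. After cotreatment 3 fell against vehicle and 4 against KW6002. Ly6c2, a surface protein of classical monocytes, went from 2.51 ± 1.12 CPM in vehicle to 0.773 ± 0.283 CPM after cotreatment (log2 fold change -1.70, edgeR adjusted P = 0.00577) and Treml4 from 0.903 ± 0.155 to 0.289 ± 0.235 CPM (-1.63, adjusted P = 0.000895), whereas the chemokine receptor Ccr2 was at 68.6 ± 14.8 and 71.7 ± 20.6 CPM (adjusted P = 0.818). The monocyte sum, almost all of it Fn1, ran from 5695.5 to 7138.1 CPM in vehicle, 5687.9 to 7317.4 CPM in KW6002, 4431.9 to 5880.6 CPM in cisplatin and 4617.2 to 6100.1 CPM in cotreated tumors.

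The summed level of 10 neutrophil markers ran from 60.7 to 114.3 CPM in vehicle, from 55.7 to 155.2 CPM in KW6002, from 20.6 to 77.5 CPM in cisplatin and from 17.4 to 34.4 CPM in cotreated tumors. Of the 5 that passed the filter, 2 fell after cisplatin, 3 after cotreatment against vehicle and 4 against KW6002, and the granule gene Elane was at 3 counts or fewer in every tumor. The platelet list went both ways. Its sum ran from 44.2 to 54.2 CPM in vehicle, from 35.1 to 55.7 CPM in KW6002, from 23.1 to 33.6 CPM in cisplatin and from 19.6 to 29.5 CPM in cotreated tumors, and in vehicle and KW6002 tumors most of it came from the integrin Itgb3, which other cells also use and which fell by 1.27 after cisplatin and by 1.08 after cotreatment (log2, edgeR adjusted P = 9.45e-05 and 0.000101). The platelet integrin Itga2b rose by 0.62 and 0.54 (adjusted P = 0.00876 and 0.00814), whereas the platelet chemokine Ppbp, the third marker tested, fell by 1.70 after cotreatment against vehicle and by 1.49 against KW6002 (adjusted P = 0.00566 and 0.0129). The platelet genes Gp9 and Gp1bb averaged at most 0.047 CPM in any group.

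The 8 dendritic cell markers summed to 27.4 to 40.8 CPM in vehicle, 32.3 to 50.5 CPM in KW6002, 29.8 to 37.0 CPM in cisplatin and 22.7 to 30.6 CPM in cotreated tumors, where 4 of 8 fell against vehicle and 6 of 8 against KW6002. After cisplatin none of the 8 fell and 1 rose (12.5%, against 6.01% of all genes called higher). Between cotreatment and cisplatin 1 fell (12.5%, against 1.71% of all genes called lower). The 6 markers of mast cells and basophils summed to 25.1 to 78.4 CPM in vehicle, 55.9 to 122.4 CPM in KW6002, 5.41 to 25.5 CPM in cisplatin and 25.1 to 35.1 CPM in cotreated tumors. In this list 5 of 6 fell after cisplatin, 2 after cotreatment against vehicle, Mcpt4 and Cpa3, and 4 against KW6002, whereas the basophil protease Mcpt8 rose by 0.83 after cisplatin and by 1.86 after cotreatment (log2, edgeR adjusted P = 0.0423 and 3.57e-05). All 5 endothelial markers fell in both groups given cisplatin, with sums of 123.7 to 182.4 CPM in vehicle, 108.8 to 174.2 CPM in KW6002, 59.3 to 80.0 CPM in cisplatin and 61.1 to 94.8 CPM in cotreated tumors. All 5 red blood cell markers fell as well, from sums of 25.9 to 117.0 CPM in vehicle and 25.6 to 50.5 CPM in KW6002 to 3 counts or fewer of each gene in every tumor given cisplatin. The 5 skeletal muscle markers summed to 987.5 CPM in cotreated tumor 4, against 2.82 to 234.1 CPM in all other tumors, and this tumor was also the highest of its group for Csf1r, Adgre1, Fcgr1 and Clec4n. Without it cotreatment lowered 8 members against cisplatin, where 2.67% of all genes were called lower. The 5 fat markers were highest in vehicle tumor 2 with 167.7 CPM and the 6 fibroblast markers in cisplatin tumor 4 with 14228.4 CPM. Of these 6, 2 fell after cisplatin (33.3%) and 1 after cotreatment against vehicle (16.7%), with none higher in either. Against KW6002, 1 rose and 1 fell. KW6002 tumor 1 held B cell markers at 44.1 CPM, against 0.468 to 1.49 CPM in all other tumors, and T and NK cell markers at 28.4 CPM, against 2.13 to 11.4 CPM. Of the 8 T and NK cell markers, 6 fell after cotreatment against KW6002 and none was called against vehicle. The part of these cells in the levels of Ptprc, Fgr, the Fc receptors, the oxidase genes, Chil3, Pf4, Clec4n and Clec7a was not tested.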

How the data were processed

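Poly(A)-selected stranded libraries of 20 LLC1 tumors were sequenced by the authors as single-end reads of 50 bases and aligned to mm10 (GRCm38) with STAR. The authors counted uniquely aligned reads per gene with HTSeq-count 0.6.1p1 in union mode, and the deposited table holds these raw counts. The study's methods name more than one Ensembl release; which of them served these tumors and the strand setting are not given in the sources used here. Groups were taken from the sample titles. Symbols were matched through GENCODE M21 for 35142 of 35226 genes, and 16665 genes, holding 99.9% of counts, passed edgeR's filterByExpr.

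edgeR 4.0.16 (R 4.3.3) was fitted to all 20 tumors with TMM scaling, 4 group means and robust quasi-likelihood dispersions (common biological coefficient of variation 0.163). Tests were two-sided with Benjamini-Hochberg adjustment over all genes tested, and a call required an adjusted P under 0.05 and a log2 fold change of at least 0.32, the limits the study applied to its tumors. A prior count of 2 was added for log2 CPM. Gene pair ratios were tested by exact permutation. Alternatives were DESeq2 1.42.0, RLE or upper quartile scaling, other low count filters, a replicate block, the library code series as a term, only the tumors compared, later codes only and each tumor left out. Separate code terms and earlier codes only were added after the data were seen. The members and lists were chosen with earlier results of these data known. All 48 members were named or counted, though values of a few genes, including 1 member and its ratio, are not reported here; values of every tumor were printed for Ptprc, Csf1r, Adgre1, Spi1 and Nos2 and for the 2 members of each role with the smallest adjusted P, and genes of other lists were named as the 2 smallest adjusted P of a list, and Fn1, Ccr2, Elane, Itga2b, Gp9, Gp1bb, Cpa3, Epcam and Sftpc were named after their values were seen. In simulated counts for cotreatment against vehicle, 200 genes were changed and no difference between code series was added. There, 4 of 16301 unchanged genes were called. Of genes changed by 1 upward and downward on the log2 scale, 68% and 75.5% were called. Of those changed by 0.5, 50% and 42% were called, so changes of that size were missed in part. In the tumors 13.1% and 10.4% of all genes were called higher and lower, so these rates need not hold for them. The labels do not say that each tumor came from a separate mouse, so P values measure the spread between these tumors. No P value is adjusted over the members alone.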

Additional observations from a re-analysis of the deposited data

Results flagged for a closer look

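In each member and group of 5 tumors the highest and the lowest tumor were compared with the rest by Dixon's ratio at the 95% level. Of 192 groups, 8 held a tumor that stood apart, where chance flags about 1 in 20 groups. No explanation was tested.

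Among identity genes, Csf1r was at 161.6 CPM in cotreated tumor 4, above the other cotreated tumors. Spi1 was at 17.4 CPM in KW6002 tumor 5 and Ptprc at 67.0 CPM in vehicle tumor 3, both below the rest of their group. Fgr was at 38.2 CPM in KW6002 tumor 2, above the other KW6002 tumors.

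Chil3 was at 98.1 CPM in cotreated tumor 5, more than in any other tumor of the series. Clec7a stood apart in 2 groups, at 16.8 CPM in KW6002 tumor 1, which also held B cell markers at 44.1 CPM, and at 15.4 CPM in cisplatin tumor 5. Siglec1 was at 46.5 CPM in KW6002 tumor 5, below the other KW6002 tumors.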

How the results depend on the processing

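No member log2 fold change that was called reversed its direction under any alternative. DESeq2, RLE, upper quartile scaling, the filter of at least 10 counts and the library code series as a single term kept every count of called members within 1.5 times, except that DESeq2 called 5 members lower in the interaction. For cotreatment against cisplatin, 3 members were lower with no low count filter (0.525% of all genes), 2 with only the tumors compared (0.509%), 0 within the later codes and 3 within the earlier codes, where the median was 0.01. Within the later codes, the count raised by cisplatin was 25 and the count lowered 0; the counts lowered by cotreatment were 3 against vehicle and 5 against KW6002, with medians of 0.17 and 0.09. With separate code terms, cisplatin raised 4 and lowered 7, cotreatment raised 7 and lowered 18 against vehicle and lowered 20 against KW6002 with a median of -0.33, and the interaction lowered 1 (0.078% of all genes). The cause was not tested. Of the calls, 10 of 12 after cisplatin, 11 of 19 after cotreatment against vehicle, 0 of 5 against cisplatin and 12 of 22 against KW6002 remained within the later codes, which hold fewer tumors.

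With each tumor left out in turn, cisplatin raised 9 to 19 members (19 without cisplatin tumor 1) and lowered 1 to 3 (1 without vehicle tumor 2, vehicle tumor 4 or cisplatin tumor 4). Cotreatment raised 7 to 12 (7 without vehicle tumor 3) and lowered 6 to 12 against vehicle, and raised 8 to 10 and lowered 11 to 16 against KW6002. Against cisplatin it raised 0 to 1 (Mertk, without cotreated tumor 1 or 4) and lowered 2 to 11, with 11 without cisplatin tumor 1, 8 without cisplatin tumor 2 or cotreated tumor 4, 3 without cisplatin tumor 3, 4 or 5 or cotreated tumor 1 or 2, and 2 without cotreated tumor 3. The share of all genes called moved too, from 4.56% to 7.43% higher and 3.46% to 4.81% lower after cisplatin, 11.7% to 13.9% and 8.1% to 10.6% after cotreatment against vehicle, 11% to 13.4% and 8.56% to 10.8% against KW6002, and 1.07% to 3.36% and 0.634% to 2.67% against cisplatin. In the interaction 0 to 4 were lower (2 without cisplatin tumor 1, 4 without cotreated tumor 4), with 0% to 0.53% of all genes called lower. The ratio differences between groups ran from 0.62 to 0.90 (cotreatment against vehicle), 0.22 to 0.50 (against cisplatin), 0.58 to 0.85 (against KW6002) and 0.35 to 0.52 (cisplatin against vehicle) for Mrc1 to Adgre1, and from 0.52 to 0.74 for Trem2 to Csf1r (cisplatin against vehicle). The medians ran from 0.15 to 0.31 after cisplatin, from -0.11 to -0.03 after cotreatment against vehicle, from -0.32 to -0.16 against cisplatin, from -0.24 to -0.10 against KW6002, from -0.40 to -0.25 in the interaction and from 0.07 to 0.14 for KW6002 alone.

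Whether replicate numbers paired the tumors cannot be told. Over 30 same-numbered pairs of tumors the correlation of deviations from the group means ran from -0.392 to 0.391. In 12 pairs it was over 0.1, and pairs with unlike numbers were not set beside them. All tumors numbered 1 were of the earlier codes and all numbered 4 or 5 of the later codes. The correlations and the replicate block therefore hold part of any difference between the code series. With the replicate block, cotreatment lowered 6 members against cisplatin (1.47% of all genes), raised 9 and lowered 15 against KW6002 (12.1% and 10.5%), and raised 10 and lowered 8 against vehicle (12.4% and 10.2%), and cisplatin raised 10 and lowered 2 (5.44% and 4.22%). With 5 tumors per group, P of the gene pair ratios cannot go below 0.00794 by exact permutation, or below 0.0625 with the replicate block. The lowest count of any member in any tumor was 71; thinning to a lower depth was not run.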
